A study of Mus musculus with 8 samples.

Results

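Trpm5 is the mouse gene for a calcium-activated cation channel, and its counts were followed here per cell and per sample in dispersed pancreatic islets. It is 1 of the 24421 genes in the count tables and was chosen with results of these data known, because it was lower after partial pancreatectomy (PPTx) and was found mainly in β-cells. The levels of Trpm5 between cell types and between PPTx and control are therefore given as descriptions without a test. Unique molecular identifiers (UMIs), which count captured RNA molecules, were measured in 4 control samples and 4 PPTx samples, all from 8-week-old male C57BL/6J mice with no altered allele or transgene named in the labels. Control mice had no operation, and PPTx mice were taken 2 days after a 50% resection. Each sample pooled the islets of 1 to 3 mice, so the spread between samples is that between pools. The splenic side of the pancreas was removed in PPTx, so that the remaining islets came from another region, and the region and the operation cannot be told apart.

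TRPM5 opens when intracellular Ca2+ rises and then carries mainly Na+ into the cell, which depolarizes the membrane. It is best known from taste receptor cells and tuft cells, where receptors coupled to G proteins release Ca2+ from the endoplasmic reticulum and TRPM5 turns this signal into a voltage change. In β-cells it has been linked to the electrical and Ca2+ oscillations that drive insulin secretion at raised glucose.

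Trpm5 lies on the minus strand at chr7:143071529-143094642 of mm10 (RefSeq on GRCm38.p6), a span of 23.1 kb that no other RefSeq gene overlaps. Tssc4 on the opposite strand ends 436 bases from it, and the 2 genes face each other with their 3′ ends. The sequence around the start site is shown for Trpm5 and for 2 other genes of β-cells, Ins1, which encodes insulin, and Ucn3, whose profile over cell types was among those closest to that of Trpm5 below. Each runs from 250 bases before to 50 bases after the start in the direction of transcription, and capitals mark CANNTG (the E-box bound by basic helix-loop-helix factors), TAAT (a core bound by homeodomain factors) and TGCTGA (part of the element bound by MAF factors), each searched on both strands. The windows are chr7:143094593-143094892 (minus strand) for Trpm5, chr19:52264047-52264346 (plus strand) for Ins1 and chr13:3945300-3945599 (minus strand) for Ucn3.
Trpm5: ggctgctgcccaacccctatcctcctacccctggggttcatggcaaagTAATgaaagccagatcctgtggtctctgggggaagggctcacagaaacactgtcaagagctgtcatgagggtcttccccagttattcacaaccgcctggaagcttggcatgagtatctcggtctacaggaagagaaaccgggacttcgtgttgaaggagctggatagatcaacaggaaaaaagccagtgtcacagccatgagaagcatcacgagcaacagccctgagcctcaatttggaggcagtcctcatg
Ins1: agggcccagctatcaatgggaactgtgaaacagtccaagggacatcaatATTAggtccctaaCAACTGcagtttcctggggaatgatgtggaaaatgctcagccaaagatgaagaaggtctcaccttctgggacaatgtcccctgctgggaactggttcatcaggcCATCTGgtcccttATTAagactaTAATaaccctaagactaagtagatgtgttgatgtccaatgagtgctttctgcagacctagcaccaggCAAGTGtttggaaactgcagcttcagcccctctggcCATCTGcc
Ucn3: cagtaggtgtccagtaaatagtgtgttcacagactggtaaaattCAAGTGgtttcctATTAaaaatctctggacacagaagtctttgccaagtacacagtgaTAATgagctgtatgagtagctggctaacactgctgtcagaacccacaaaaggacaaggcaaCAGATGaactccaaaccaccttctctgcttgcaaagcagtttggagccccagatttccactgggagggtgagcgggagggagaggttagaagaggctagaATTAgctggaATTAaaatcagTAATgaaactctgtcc
The Trpm5 window held 1 TAAT and neither of the other motifs. The Ins1 window held 4 CANNTG and 3 TAAT, and the Ucn3 window held 2 CANNTG and 5 TAAT. Of 3 more genes with a profile close to that of Trpm5, Fkbp1b held 1 TAAT and neither of the others, as Trpm5 did, Car15 held 2 TAAT and 1 TGCTGA, and Emilin1 held 1 CANNTG and 1 TAAT. Among all 27025 promoter windows of the same length, 72.1% held CANNTG, 58.3% held TAAT and 19.1% held TGCTGA, so that such matches are common. No measurement of binding or open chromatin accompanies these data, and the matches describe letters only.

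The tables held 236645 to 1580152 UMIs per sample, and 1232 of 1240 cells passed the limits of 100 to 3000 genes and 100 to 20000 UMIs per cell. No kept cell had fewer than 2005 UMIs, and 1 barcode occurred in more than 1 sample. Cells were divided by their hormone transcripts. A cell was insulin-rich when Ins1 and Ins2 together took at least 20% of its UMIs and Gcg, Sst and Ppy each took under 5%. It was Gcg-rich, Sst-rich or Ppy-rich when that hormone took at least 5% of UMIs and 3 times each of the others, with insulin under 20%, and all remaining cells were called mixed. This gave 923 insulin-rich (β-like), 111 Gcg-rich, 10 Sst-rich, 126 Ppy-rich and 62 mixed cells. The insulin share had a median of 59.7% in insulin-rich cells and under 1% in each of the other 3 hormone classes, and only 12 cells had a share between 10 and 30%, near the limit. The β-cell markers Ucn3 and Slc2a2 stood at 537.4 and 220.3 CPM (counts scaled to a total of 1000000 UMIs) in insulin-rich cells and at 11.2 and 7.003 CPM in Ppy-rich cells, whereas Mafa was nearly absent from the tables, with 2 UMIs in insulin-rich cells. The composition of the samples differed with the operation. Gcg-rich cells took 9.23 to 27.8% of the kept cells in control and 0.633 to 3.70% in PPTx samples, and Ppy-rich cells took 3.08 to 8.82% and 9.49 to 15.3%.

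Trpm5 RNA was found almost entirely in insulin-rich cells. Of its 632 UMIs in kept cells, 625 (98.9%) were in insulin-rich cells, 2 in Gcg-rich cells, 5 in mixed cells and none in Sst-rich or Ppy-rich cells. A Trpm5 UMI was present in 370 of 923 insulin-rich cells (40.1%, exact 95% binomial interval 36.9 to 43.3%) and in 2 of 247 cells of the other 3 hormone classes (0.810%, 0.0982 to 2.89%), where the median depth was lower, at 3976 UMIs in Gcg-rich, 2845 in Sst-rich and 5206 in Ppy-rich against 6136 in insulin-rich cells. Intervals of this kind cover counting error only, since cells and molecules of one sample are not independent animals. Pooled over samples the level was 99.9 CPM (exact Poisson 95% interval 92.2 to 108.1) in insulin-rich cells and 1.63 CPM (0.198 to 5.90) in the other hormone classes, a ratio of 61.2 (16.9 to 506.5). Since each of the 2 UMIs in the latter came from another sample, the ratio was 111.3 without control 2 and 98.9 without PPTx 2. The order of the classes was insulin-rich, then mixed at 18.7 CPM (6.08 to 43.7), then Gcg-rich at 4.16 CPM from 2 UMIs, with Sst-rich and Ppy-rich cells at 0, and the lower classes rest on too few UMIs to be ordered with confidence.

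The few UMIs outside insulin-rich cells were set against the number that RNA in ratio to insulin would give. The other hormone classes held insulin UMIs at 1.03% of their total, and Trpm5 in the same ratio to insulin as in insulin-rich cells would have given 2.14 UMIs there, against 2 observed. By class this was 0.848 UMIs against 2 in Gcg-rich cells, 0.0746 against 0 in Sst-rich cells and 1.22 against 0 in Ppy-rich cells. In mixed cells the same ratio gave 8.16 UMIs against 5 observed. The 2 positive Gcg-rich cells were a control cell with 0.418% insulin and 50.3% Gcg and a PPTx cell with 11.4% insulin and 19.5% Gcg. Trpm5 RNA of the Gcg-rich cells' own and RNA that came with insulin RNA cannot be told apart from these counts. For the Ppy-rich cells a count of 0 placed the level at least 23.8-fold below that of insulin-rich cells, with 3 counts over the class as the floor (19.3-fold at the lower end of the exact 95% interval of the ratio). The 10 Sst-rich cells set no bound, since that interval began at 0.815. When every cell was thinned to 2800 UMIs, 192 of 831 insulin-rich cells (23.1%) and 0 of 198 cells of the other hormone classes had a Trpm5 UMI, with 92 and 49 shallower cells left out.

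**Figure D1:**
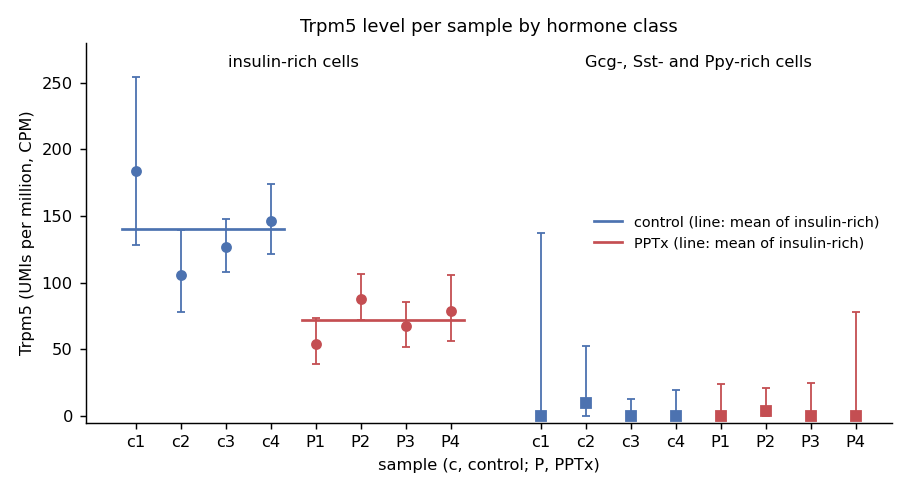
Trpm5 in CPM (y axis) for each sample, in insulin-rich cells (left) and in the Gcg-, Sst- and Ppy-rich cells together (right), with exact Poisson 95% intervals and the group means of the insulin-rich cells as lines. The 4 control samples sit between 105.8 and 183.5 CPM and the 4 PPTx samples between 54.3 and 88.0 CPM, while 6 of the 8 samples have no Trpm5 UMI in the other hormone classes.

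Within insulin-rich cells the level of Trpm5 was lower in every PPTx sample than in any control sample. Controls 1 to 4 stood at 183.5, 105.8, 126.9 and 146.0 CPM, from 36, 49, 161 and 124 UMIs. PPTx samples 1 to 4 stood at 54.3, 88.0, 67.2 and 78.4 CPM, from 42, 107, 64 and 42 UMIs. The 2 groups did not overlap, although the counting intervals of the lowest control (78.3 to 139.9 CPM) and the highest PPTx sample (72.1 to 106.3 CPM) did. In the order of levels, the counting intervals of neighbouring samples overlapped. The means were 140.6 ± 33.0 CPM in control and 71.99 ± 14.5 CPM in PPTx (SD, n = 4 each), so that PPTx stood at 0.512 times the control level. The fit of edgeR gave a log2 fold change of −1.03 with an SE of 0.19. Since Trpm5 was chosen for this difference, no p-value is given. It remained between −1.13 and −0.93 when each sample was left out in turn, and was −0.97 over all kept cells irrespective of their hormones.

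Cells with a Trpm5 UMI were likewise fewer after PPTx. The share of insulin-rich cells with a UMI was 48.1, 42.1, 68.9 and 56.9% in controls 1 to 4 and 24.7, 29.5, 41.6 and 22.6% in PPTx samples 1 to 4. Here the groups nearly met, at 42.1% in control 2 and 41.6% in PPTx 3, and median depth ranged from 3468 UMIs per insulin-rich cell in control 1 to 10441 UMIs in control 3. At an equal 2800 UMIs per cell, the shares were 36.6, 21.9, 32.5 and 34.8% in control and 12.6, 20, 19 and 14.6% in PPTx, or 31.5 ± 6.57% and 16.5 ± 3.52% (SD, n = 4 each). The groups did not overlap at equal depth. Among the positive cells at that depth, the mean was 1.23 ± 0.087 UMIs per cell in control and 1.22 ± 0.064 UMIs in PPTx, values that differ by less than their spread and lie near the least possible value of 1, so that the level per positive cell could hardly have shown a change at this depth.

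The spread of Trpm5 over single cells was compared with counting noise. If every cell of a sample had held Trpm5 at the same share of its UMIs, 148.5 of 368 control cells would have had no UMI, and 160 had none. In PPTx 357.8 of 555 cells would have had none, and 393 had none. Cells with 4 or more UMIs numbered 14 in control against 11.8 from counting alone, and 8 in PPTx against 1.497. At 2800 UMIs per cell the variance over the mean was 1.14, 0.99, 1.05 and 1.19 in the controls and 1.15, 1.42, 1.13 and 1.17 in PPTx, so that PPTx 2 alone was above the controls and the other PPTx samples lay within the range of the controls.

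**Figure D2:**
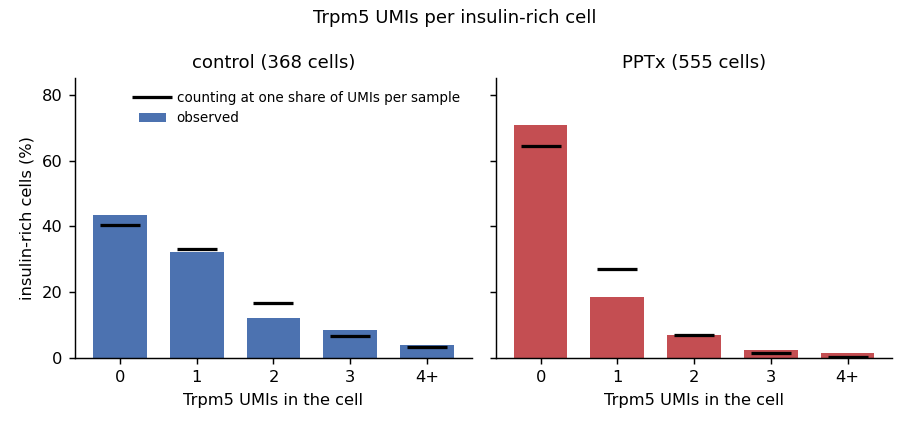
Percent of insulin-rich cells (y axis) with 0, 1, 2, 3 or at least 4 Trpm5 UMIs (x axis) in control and PPTx, as observed (bars) and as counting at one share of UMIs per sample would give (black lines). Cells without a UMI are 43.5% in control and 70.8% in PPTx, against 40.4% and 64.5% from counting alone.

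Lists of markers of other cell types were summed in the same insulin-rich cells, and the alpha-cell list was higher in every PPTx sample than in any control sample. PP-cell markers other than Ppy (3 of 5 genes with a UMI) summed to 96.8 to 422.7 CPM in control and 400.5 to 1087 CPM in PPTx insulin-rich cells, with overlap of the lowest PPTx and the highest control sample. The alpha-cell list (7 of 8 genes with a UMI, Pou3f4 at 0) summed to 1638 to 2192 CPM in control and 2227 to 2740 CPM in PPTx, without overlap. Most of it was Ttr, at 1444 ± 194.6 and 1885 ± 166.2 CPM (SD, n = 4 each). Gc averaged 58.3 ± 9.96 and 110.4 ± 37.2 CPM, and Tmem27 324.1 ± 56.8 and 388.8 ± 92.9 CPM. Slc7a2 went the other way, at 89.0 ± 18.2 and 69.2 ± 16.5 CPM, the 1 of 4 tested genes of the list below 0. The alpha-cell factor Irx2 had 4 UMIs. The ductal list (5 of 6 genes, Cftr at 0) summed to 149.0 to 158.0 CPM and 147.1 to 302.4 CPM, and the ranges overlapped. The delta-cell list (4 of 6 genes, Ghsr and Lepr at 0) summed to 34.7 to 64.8 CPM in control and 33.6 to 38.9 CPM in PPTx, with overlap. The stellate list (6 of 6 genes) ranged from 0 to 15.0 CPM in control and from 1.05 to 9.34 CPM in PPTx. Acinar markers (5 of 6 genes with a UMI, Prss1 at 0) summed to 4.32 to 40.8 CPM in control and 7.35 to 104.6 CPM in PPTx, again with overlap. Endothelial markers reached at most 10.2 CPM (Pecam1, Cdh5 and Flt1 at 0) and immune markers at most 2.16 CPM (Ptprc, Lyz2, Tyrobp and Laptm5 at 0) in every sample. The part of other cell types in the Trpm5 values was not tested. Under the stricter hormone rule, with insulin at 30% or more and the other hormones under 2%, Trpm5 changed by −1.02 on the log2 scale.

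Markers of tuft cells, the other Trpm5-positive cells of epithelia, were nearly absent. Of 11 tuft genes, 5 had a UMI in insulin-rich cells, with 79 UMIs in all, and the defining Pou2f3, Gfi1b and Il25 were at 0. Most of these UMIs were of Alox5ap (44 UMIs) and Dclk1 (22 UMIs). The list summed to 10.2 to 12.6 CPM in control and 10.5 to 18.7 CPM in PPTx insulin-rich cells, far below Trpm5 in the same cells.

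Across all genes, 5829 besides Trpm5 were tested in insulin-rich cells by edgeR's quasi-likelihood test on the sums per sample. At an adjusted p of 0.05 (Benjamini-Hochberg), 18 were called (0.309%), 12 higher in PPTx (0.206%) and 6 lower (0.103%), and DESeq2 called 23. At an unadjusted p under 0.05 there were 556 genes (9.54%), the background for the counts at that limit below. DESeq2 withholds an adjusted p from genes of low mean count, and such genes could not be called by it. With library size alone as the scaling, 27 were called higher and 4 lower, and the median of all genes shifted by 0.13 on the log2 scale. Leaving out control 1, control 2 or PPTx 1 left 7 calls each. A lower log2 fold change than that of Trpm5 was found for 26 of the 5829 genes (0.446%). All PPTx samples lay below all controls for 74 genes (1.27%) and above all controls for 273 genes (4.68%). Since Trpm5 was chosen for being lower after PPTx, its place among these genes is a description only. The median log2 fold change of all tested genes was −0.01, and 51.5% were below 0. Of the islet hormones and their partners, Ppy and Pyy were called higher, at log2 fold changes of 1.86 (adjusted p = 0.00766) and 1.58 (adjusted p = 0.0274). In Ppy-rich cells, which took a larger share of the PPTx samples, Ppy stood at 488409 CPM and Pyy at 113027 CPM. In insulin-rich cells they stood at 711.7 and 498.5 CPM, and the part of RNA from Ppy-rich cells in these values was not tested. Ppy kept its call when any sample was left out and lost it under the looser hormone rule (adjusted p = 0.555) and over all kept cells (adjusted p = 0.367). Pyy lost its call in DESeq2 (adjusted p = 0.163), under the stricter hormone rule (adjusted p = 0.222), over all kept cells (adjusted p = 0.449) and without control 1, 2 or 3 or PPTx 1, 3 or 4 (adjusted p up to 0.123).

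The other channels of the TRPM family were sparse in insulin-rich cells. Of the 7 other members, 5 had a UMI, 2 could be tested by edgeR and 0 were called, with 0 at an unadjusted p under 0.05, and DESeq2 gave neither an adjusted p. Since 0.309% of all genes were called, a count of 0 says nothing of 2 genes. Trpm7, a channel fused to a kinase that passes Mg2+, averaged 22.9 ± 9.56 CPM in control and 14.4 ± 6.22 CPM in PPTx (SD, n = 4 each). Trpm4, the closest relative of Trpm5 and likewise activated by Ca2+, averaged 16.6 ± 3.61 CPM in control and 14.3 ± 3.47 CPM in PPTx. Its control values were 20.4, 13.0, 18.9 and 14.1 CPM and its PPTx values 18.1, 16.4, 11.6 and 11.2 CPM, so that the groups overlapped. The log2 fold change of Trpm4 was −0.31 with an SE of 0.32 (edgeR, adjusted p = 0.827), and no test of the difference from Trpm5 was made. Trpm3, Trpm2 and Trpm6 had 19, 9 and 2 UMIs, and Trpm1 and Trpm8 none.

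Few UMIs came from the cascade that opens TRPM5 in taste cells. Such counts do not show that a gene is absent, since Mafa and Glp1r, genes known from β-cells, had only 2 and 6 UMIs in the same cells. Of the 9 genes of that list in the tables, Tas1r1, Tas1r2, Gnat3, Gnb3, Plcb2 and Calhm1 were at 0 in insulin-rich cells, where 3 counts would be 0.480 CPM. Gng13, a G protein γ subunit, had 10 UMIs and Tas1r3, the shared subunit of sweet and umami receptors, had 1 UMI. Itpr3, the IP3 receptor through which taste cells release stored Ca2+, was the single member with enough counts to test. Its levels were 40.8, 23.8, 26.8 and 37.7 CPM in control and 15.5, 23.9, 16.8 and 26.1 CPM in PPTx. The groups overlapped, and its log2 fold change of −0.73 (SE 0.27) was not called (edgeR, adjusted p = 0.35, with an unadjusted p under 0.05, and no adjusted p from DESeq2).

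Genes of the Gq and phospholipase C route, which raises cytosolic Ca2+ in many cells, were present in part. All 13 had a UMI, 7 were tested and 0 were called by edgeR, with 3 at an unadjusted p under 0.05. Against 0.309% of all genes called, a count of 0 is no result about so few genes. DESeq2 gave an adjusted p for 3 of the 7 and called 0. All 7 log2 fold changes were below 0, at a median of −0.35, against 51.5% of all genes below 0. With library size as the only scaling those of Gna11 and Atp2a2 rose above 0. With 1 sample left out, Stim1, Atp2a2, Gna11 and Gnaq reached up to 0.26, 0.05, 0.04 and 0.0016. Itpr1, another IP3 receptor, which lies outside the rule for named genes and was chosen after its values were seen, stood at 19.5 ± 4.81 CPM in control and 7.61 ± 1.51 CPM in PPTx (SD, n = 4 each). Its values were 20.4, 23.8, 12.6 and 21.2 CPM in control and 7.75, 5.76, 9.45 and 7.47 CPM in PPTx, without overlap. Its log2 fold change was −1.40 with an SE of 0.36 (edgeR, adjusted p = 0.11), and DESeq2 gave it no adjusted p. Itpr1 was called over all kept cells (edgeR, adjusted p = 0.00237). It stood at 191.4 CPM in Gcg-rich cells, which were fewer in PPTx, against 12.0 CPM in insulin-rich cells. The call over all kept cells thus cannot be told apart from the change in cell mix. The part of RNA from Gcg-rich cells in the Itpr1 values of insulin-rich cells was not tested. The Ca2+ pumps of the endoplasmic reticulum, Atp2a2 and Atp2a3, had log2 fold changes of −0.04 (SE 0.14) and −0.37 (SE 0.18), and the G protein α subunits Gna11 and Gnaq of −0.06 (SE 0.19) and −0.16 (SE 0.22).

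Receptors upstream of cation currents in β-cells were sparse, and with 0.309% of all genes called, a count of 0 says little of them. Of 10 such genes 8 had a UMI, 4 were tested by edgeR, and 0 were called or at an unadjusted p under 0.05. DESeq2 gave an adjusted p for 1 of them and did not call it. Adra2a, the adrenergic receptor that restrains insulin secretion, averaged 77.4 ± 25.7 CPM in control and 70.3 ± 8.26 CPM in PPTx. Gcgr, the glucagon receptor, averaged 33.5 ± 16.9 and 29.7 ± 7.27 CPM, and Gipr, the receptor for the incretin GIP, 15.0 ± 9.004 and 20.8 ± 12.2 CPM (SD, n = 4 each). Glp1r had only 6 UMIs in insulin-rich cells.

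Among 26 genes of glucose sensing and electrical activity, 16 were tested and 0 were called by edgeR, with 2 at an unadjusted p under 0.05. With 0.309% of all genes called, a count of 0 says little of these genes. DESeq2 gave an adjusted p for 3 of the 16 and called 0. The median log2 fold change was −0.31, and 13 of 16 were below 0 against 51.5% of all genes. Slc2a2, the glucose transporter GLUT2, was one of them, with 244.6, 276.5, 233.3 and 275.5 CPM in control and 195.2, 199.9, 200.6 and 162.5 CPM in PPTx. The groups did not overlap, and its log2 fold change of −0.54 (SE 0.15) was not called (edgeR, adjusted p = 0.157, between 0.0651 and 0.392 over the other settings). The sodium leak channel Nalcn, also named after its values were seen, fitted at −0.89 (SE 0.31, adjusted p = 0.281). The KATP channel subunit Abcc8 stood at 320.3 ± 33.3 CPM in control and at 347.2 ± 67.9 CPM in PPTx (SD, n = 4 each), a difference smaller than the spread.

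**Figure D3:**
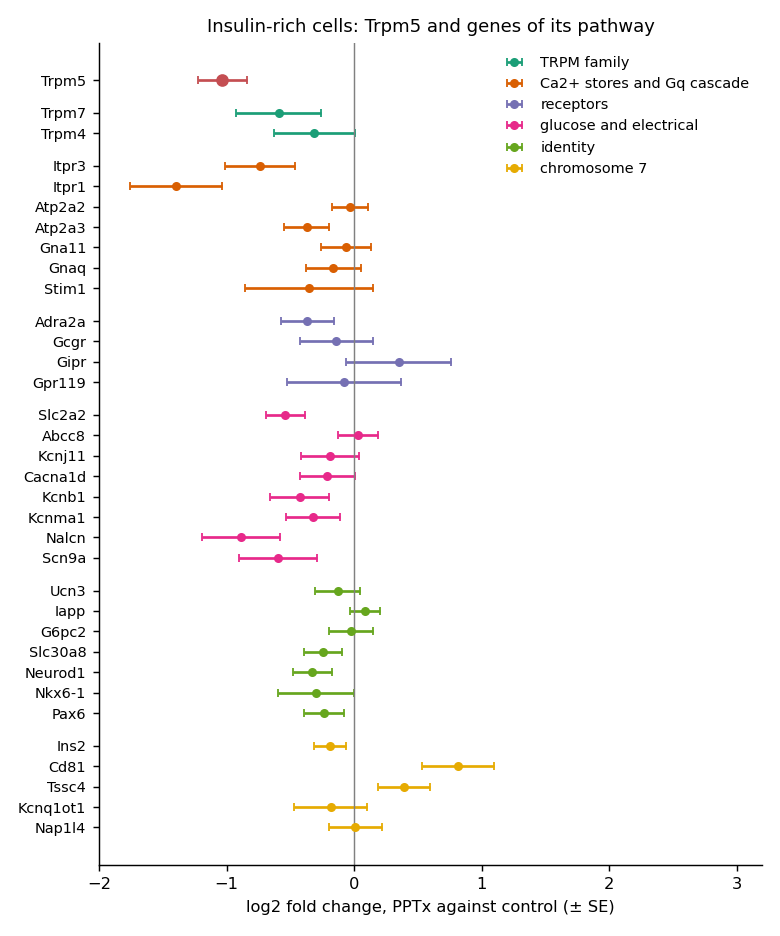
Log2 fold change of PPTx against control (x axis, edgeR, with SE bars) in insulin-rich cells for Trpm5 and for tested genes of its family, its Ca2+ cascade, receptors, glucose sensing and electrical activity, β-cell identity and chromosome 7. Trpm5 lies at −1.03 and Itpr1 at −1.40, and the others lie between −0.89 for Nalcn and 0.81 for Cd81. None of the genes tested here was called, against 0.309% of all tested genes (Trpm5 itself was not tested).

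Genes of β-cell identity were followed next, where 0.309% of all genes were called and a count of 0 is no result about so few genes. Of 17 genes, Slc2a2 among them, 12 were tested by edgeR and DESeq2, with 0 calls by either, 3 genes at an unadjusted p under 0.05 and a median log2 fold change of −0.18. Ucn3, the peptide urocortin 3 of mature β-cells, averaged 534.2 ± 112.8 CPM in control and 524.4 ± 92.3 CPM in PPTx. Iapp, the amyloid peptide secreted with insulin, averaged 45776 ± 3309 and 51718 ± 6116 CPM, and Slc30a8, the zinc transporter of insulin granules, 476.8 ± 88.1 and 424.5 ± 77.7 CPM (SD, n = 4 each). The log2 fold changes were −0.13 (SE 0.18) for Ucn3, 0.08 (SE 0.12) for Iapp and −0.25 (SE 0.15) for Slc30a8. Of the 12 tested, 10 were below 0, against 51.5% of all genes. The 3 at an unadjusted p under 0.05 were Slc2a2, Nkx2-2 and Neurod1. Nkx2-2, named after its values were seen, averaged 105.1 ± 7.17 CPM in control and 80.3 ± 12.9 CPM in PPTx. Its groups did not overlap, and all PPTx samples lay below all controls for 1.27% of all tested genes. Nkx2-2 and Neurod1 fitted at −0.49 (SE 0.19, edgeR, adjusted p = 0.364) and −0.33 (SE 0.15, adjusted p = 0.509).

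The neighbours of Trpm5 on chromosome 7 were too few for a count of 0 to differ from the 0.309% called over all genes. Of 14 genes within 462.6 kb, 7 were tested, 3 of them with a log2 fold change below 0, and 1, Cd81, was at an unadjusted p under 0.05. DESeq2 gave an adjusted p for 2 of the 7 and called 0. Tssc4, at 436 bases, stood at 93.7 ± 12.0 CPM in control and 130.2 ± 39.6 CPM in PPTx, with a log2 fold change of 0.39 (SE 0.21, adjusted p = 0.56). Cd81, a tetraspanin 3.6 kb away, stood at 10.2, 30.2, 34.7 and 36.5 CPM in control and 76.3, 37.8, 64.1 and 69.1 CPM in PPTx, with a log2 fold change of 0.81 (SE 0.28, edgeR, adjusted p = 0.281). Without PPTx 2 it was called (adjusted p = 0.0373, log2 fold change 1.08), and over all kept cells its log2 fold change was 0.23 (adjusted p = 0.814). Cd81 stood at 347.4 CPM in Ppy-rich, 314.1 CPM in Gcg-rich and 695.6 CPM in Sst-rich cells against 47.0 CPM in insulin-rich cells, and the part of these cells in its values was not tested. Ins2, 391.8 kb away, had a log2 fold change of −0.19 (SE 0.13, adjusted p = 0.67), and Kcnq1, the next gene beyond the Trpm5 start, had 7 UMIs.

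Over the 8 combinations of hormone class and group, the genes whose pooled log2 level ran most like that of Trpm5 were Car15, Emilin1, Fkbp1b, Ucn3 and Atp2a2, with Pearson r of 0.98, 0.97, 0.96, 0.93 and 0.91 among 7930 genes with at least 50 UMIs. These points share libraries, and the Sst-rich cells are few. Each of these genes was higher in insulin-rich cells than in the other classes, but r does not order genes by the size of that excess. Atp2a2 stood at 9.55 or more as log2(CPM + 1) in insulin-rich cells and at up to 8.11 elsewhere. In PPTx Gcg-rich cells Trpm5, Car15, Emilin1 and Fkbp1b all stood at 3.54, the level of 1 UMI, so that their likeness there rests on single UMIs. Car15 and Emilin1 were at 0 in Sst-rich and Ppy-rich cells as Trpm5 was. In insulin-rich cells, Trpm5 stood at 7.07 in control and 6.22 in PPTx as log2(CPM + 1), whereas Car15 stood at 5.67 and 6.65, Emilin1 at 6.12 and 6.54, and Fkbp1b at 6.87 and 6.84. In these levels, pooled over the cells of each group, the 3 genes closest to Trpm5 over cell types were higher or level after PPTx where Trpm5 was lower. Their spread between samples is not given here, and the difference was not tested.

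**Figure D4:**
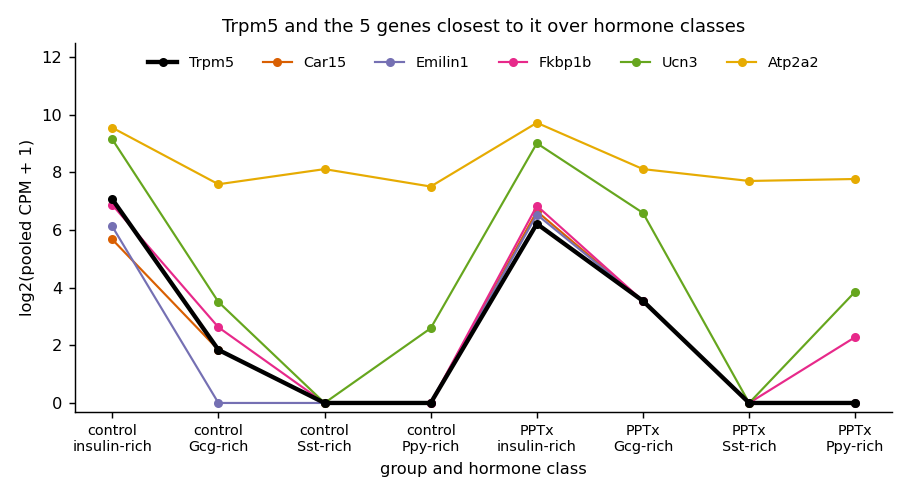
Pooled level as log2(CPM + 1) (y axis) of Trpm5 and of the 5 genes closest to it over 4 hormone classes in control and PPTx (x axis). Trpm5 peaks in insulin-rich cells at 7.07 in control and 6.22 in PPTx and is at 0 in Sst-rich and Ppy-rich cells. Its value in PPTx Gcg-rich cells rests on 1 UMI, as do those of Car15, Emilin1 and Fkbp1b.

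Over the 8 samples, the tested genes whose level in insulin-rich cells followed that of Trpm5 most closely by Pearson r were Crebrf, Itpr3, Tmem215, Spg21 and Erlin2. No r is given, because the samples fall into 2 groups for Trpm5. Crebrf, a regulator in the unfolded protein response, stood at 61.2, 36.7, 28.4 and 34.1 CPM in control and 14.2, 18.9, 14.7 and 18.7 CPM in PPTx. It was among the 6 genes called lower, at a log2 fold change of −1.22 (SE 0.27, edgeR, adjusted p = 0.0485). Tmem215 averaged 185.0 ± 26.9 and 131.8 ± 26.0 CPM, Spg21 32.5 ± 8.51 and 21.4 ± 3.95 CPM, and Erlin2 39.7 ± 8.10 and 28.6 ± 3.60 CPM in control and PPTx (SD, n = 4 each). As for Trpm5, control 1, which had the fewest UMIs (196203 in insulin-rich cells), was the highest sample for each of these 5 genes.

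Among single insulin-rich cells thinned to 2800 UMIs, no gene followed Trpm5 closely. The mean of the within-sample Spearman rho over 8 samples ran from −0.12 to 0.13 across 2149 genes, with a median of −0.0029. Among genes with the same sign in at least 7 of 8 samples, the highest were Rps6, Hnrnpr, Itm2c, Arpc2, Fkbp5, Txn1, Adrbk2 and Cst3 and the lowest Maob, Arid1a, 1810037I17Rik, Ssr1 and Atg13. Cells with an Rps6 UMI had a Trpm5 UMI in 35.9% of cases as a mean over samples, and cells without one in 21.5%. Cells with a Maob UMI had Trpm5 in 14.8% and cells without in 26.5%. In counts this sparse such weak relations are no finding, and the genes were picked from the ends of the range.

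Neither insulin content nor maturity genes ordered the Trpm5-positive cells strongly. The rho of Trpm5 with the insulin share of a cell had a median of 0.02 over samples (−0.11 to 0.10). The 12 identity genes compared had mean rho of −0.03 for Foxa2 to 0.10 for Ucn3, and the 9 genes of glucose sensing and electrical activity of −0.03 for Kcnma1 to 0.09 for Slc2a2. Trpm5 was present in 28.8% of the thinned cells with a Slc2a2 UMI and 20.1% of those without, as means over samples, with the first above the second in 8 of 8 samples. For Ucn3 the shares were 26.3% and 18.9%, in the same order in 5 of 8 samples. Both genes had the highest mean rho of their lists, so that these shares are no separate support, and no test was made. Among all 2149 genes compared, 64 had a rho above 0 in at least 7 samples. With depth, the median rho was 0.17 before thinning and −0.04 after it.

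Replicating β-cells were compared with the rest, since β-cells divide more often after PPTx. Of the 923 insulin-rich cells, 38 had at least 2 UMIs of 10 replication markers, 10 in control and 28 in PPTx. They held 27 Trpm5 UMIs, or 93.1 CPM against 100.3 CPM in the other 885 cells, a ratio of 0.928 (exact 95% interval 0.606 to 1.36). Within samples the difference averaged 33.6 ± 127.1 CPM (SD, n = 8), with Trpm5 lower in the marked cells in 4 of 8 samples, and a two-sided exact sign-flip permutation test over samples gave p = 0.578 (the smallest possible is 0.00781). Control 1 and control 2 rested on 1 marked cell each, and without control 1 the mean difference was −5.10 CPM. Within the groups the pooled levels were 141.5 against 133.0 CPM in control and 75.3 against 73.2 CPM in PPTx. The ratios were 1.06 (0.526 to 1.93) in control and 1.03 (0.579 to 1.71) in PPTx. The ratio over all cells mixes the groups, since 28 of the 38 marked cells were from PPTx. A difference between replicating and other β-like cells was thus not detectable at this depth. Without any cell that had a replication marker UMI, the log2 fold change of PPTx against control was −1.02.

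**Figure D5:**
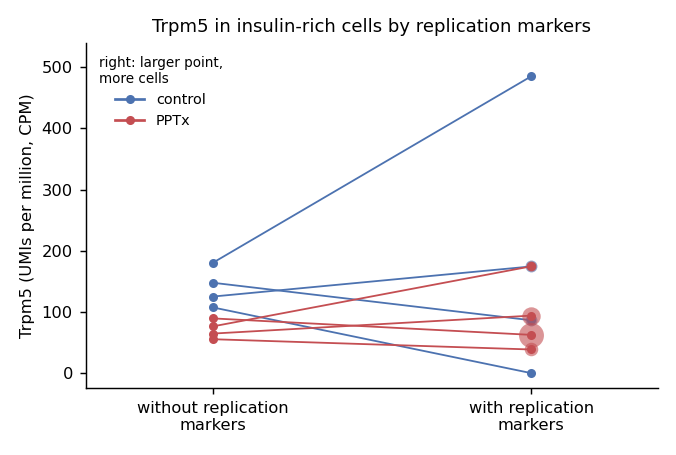
Trpm5 in CPM (y axis) in insulin-rich cells without and with replication markers for each of the 8 samples, joined by lines, with larger points on the right for more marked cells (1 to 12). The marked cells are higher in 4 samples and lower in 4, and the highest point, control 1 at 485.0 CPM, is 1 cell.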

How the data were processed

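Dispersed islet cells were captured with the ddSEQ system per the study's methods, while the labels name a Chromium kit. The authors made FASTQ files with bcl2fastq v2.20.0.422 and aligned, filtered and counted UMIs on mm10 with Cell Ranger v2.1.0. The deposited tables hold whole-number counts per gene and cell, without normalization. Trpm5, the gene lists and the rules were chosen with earlier results of these data known.

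Cells were kept by the study's limits, classed by hormone share, and summed per sample. No doublet caller was run, and cells outside the 4 hormone rules went into the mixed class. CPM are UMIs scaled to a total of 1000000 over the same cells. Thinning drew 2800 UMIs per cell (seed 1), the 10th percentile of insulin-rich cells rounded down. Sums were fitted with edgeR 4.0.16 (filterByExpr, TMM, quasi-likelihood), with limma 3.58.1 and R 4.3.3, after a test on simulated data, and DESeq2 1.42.0 was an alternative. SE is the log2 fold change over the root of F. Other steps used Python 3.11.15. The text names members of each list from its 6 highest, called members, and the genes most like Trpm5 by 3 measures of likeness. Mafa, Glp1r, Kcnq1, Irx2 and the genes named as absent lie outside this rule and were named after their values were seen. Samples come from separate pools, so p-values measure the spread between pools. Alternatives were other hormone rules, thinning, other scalings, no filter, the replicate number as a block, and each sample left out. Some list members are not reported here.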

Additional observations from a re-analysis of the deposited data

Results flagged for a closer look

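Of 86 groups of 4 samples examined, 6 had a sample far from the other 3, where chance gives about 5%. None of them was a measure of Trpm5. In PPTx insulin-rich cells, Slc2a2 was low in PPTx 4 at 162.5 CPM, Neurod1 was low in PPTx 4 at 190.5 CPM, and G6pc2 was high in PPTx 2 at 2857 CPM. Trpm2 (2.47 CPM), Trpm6 (2.101 CPM) and Tas1r3 (1.05 CPM) were high in a single PPTx sample because the other 3 samples had no UMI. Trpm5 was also present in the data left out, with 7 UMIs in the 8 cells above the limits on genes or UMIs. All 7 came from 5 insulin-rich cells, 4 of PPTx 3 and 1 of control 2, among them 3 UMIs in a PPTx 3 cell with 22242 UMIs.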

How the results depend on the processing

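The log2 fold change of Trpm5 in insulin-rich cells was below 0 under all 20 alternatives tried, the mean over cells included, between −1.13 and −0.92, the replicate block included (−1.004). The value nearest 0 was that with library size as the only scaling, where the median of all genes rose by 0.13. The ratio of insulin-rich to other hormone classes was 18.9 to 118.3 over 12 alternatives, the lowest being the bound from a count of 0 after thinning. The difference between cells with and without replication markers reversed after thinning (−2.75 CPM) and, among samples left out in turn (−5.10 to 53.8 CPM), without control 1.

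The number of called genes moved from 18 to 78 without the filter, 31 with library size only, 31 over all kept cells (chosen after seeing the data), 50 with the replicate block, and 7 to 25 when samples were left out (7 without control 1, control 2 or PPTx 1). Same-numbered samples of the 2 groups correlated at 0.17, 0.03, 0.22 and 0.35 in their deviations. Controls 1, 3 and 4 each correlated best with the PPTx sample of the same number, and control 2 correlated best with PPTx 3 (0.15). The numbers were not taken as pairs, and a link between same-numbered samples was not tested. Cells without replication markers were an alternative chosen after seeing the data, and gave 14 calls. The causes of these shifts were not tested. Depth limits the single-cell results, since a positive cell mostly held 1 Trpm5 UMI, and 10 Sst-rich cells and 38 replicating cells give wide intervals.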
